A study of Danio rerio with 2 samples.

Results

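Coarse cluster 1 was the largest group of npas4l reporter cells sorted from the tails of zebrafish embryos (Danio rerio) 20 hours after fertilisation. Its members are all cells that the authors' deposited coarse Leiden clustering numbers 1. They were 3207 of 10469 cells, of which 3060 came from the heterozygous and 147 from the mutant library. The tables pair the number with no cell type and hold no expression of single genes, so the cluster is called by its number here and its identity was not checked against marker genes. Fine cluster 1 held the same 3207 cells, which makes it undivided in the authors' finer clustering.

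Npas4l, encoded at the cloche locus, is a basic helix-loop-helix PAS transcription factor that acts at the top of the program for endothelial and blood cells in zebrafish mesoderm. It switches on regulators such as etv2 and tal1, and embryos without it lack most endothelial and blood cells. A reporter for npas4l therefore marks cells that began to transcribe the locus, whether or not a working protein followed. RNA velocity, used below, compares unspliced pre-mRNA with spliced mRNA in each cell to infer in which direction its transcriptome is moving. From it come a pseudotime, which orders the cells, and scores for how much a cell resembles the root or an end point of the inferred flow. Self-transition is a related score for how likely a cell is to stay in its own state.

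The heterozygous library was made from npas4lbns423/+ embryos and the mutant library from npas4lbns423/bns297 embryos, so both genotypes carried the bns423 allele. Tails of about 150 embryos were pooled, dissociated and sorted for GFP, with DAPI marking dead cells. The labels do not say whether that number is per genotype, and they do not describe the reporter construct. Each genotype was run on a 10x Genomics droplet lane of its own, aimed at 5000 cells. With 1 library per genotype there is no replicate and no test, and intervals are 95% intervals for counting error over cells only. Genotype, sort and lane cannot be told apart. The libraries held 5207 heterozygous and 5262 mutant cells, with 115131011 and 84294688 UMIs (unique molecular identifiers, the count of captured transcripts). Of 5 barcodes that occurred in both libraries, 3 belonged to heterozygous and 0 to mutant cells of cluster 1.

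Cluster 1 dominated the RNA of the heterozygous library even more than its cells. It held 58.8% of the heterozygous cells (57.4% to 60.1%) but 71.4% of the library's UMIs, 82198492 in all. In the mutant library it held 2.79% of the cells (2.37% to 3.28%) and 3.22% of the UMIs. Mutant cells were 4.58% of the cluster (3.89% to 5.37%).

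The share of cluster 1 varied with the UMIs per cell. These reflect both RNA content and depth of sampling, which were not separated here. The trend is another view of the higher UMIs of cluster 1 described below. Among heterozygous cells split into deciles of UMIs, cluster 1 took 10.7% of the second decile (8.22% to 13.7%), 61.6% of the fifth (57.3% to 65.8%) and 94.4% of the ninth (92.1% to 96.2%). The rise was not even at the bottom. The shallowest decile, with 11024 UMIs or fewer, held 94 cells of cluster 1, a share of 18.0% (14.8% to 21.6%), above that of the second decile. In the mutant library the share was between 0.949% and 2.29% in the lower 6 deciles and between 3.99% and 5.13% in the upper 4. No decile of the mutant library reached the lowest share of any heterozygous decile.

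**Figure D1:**
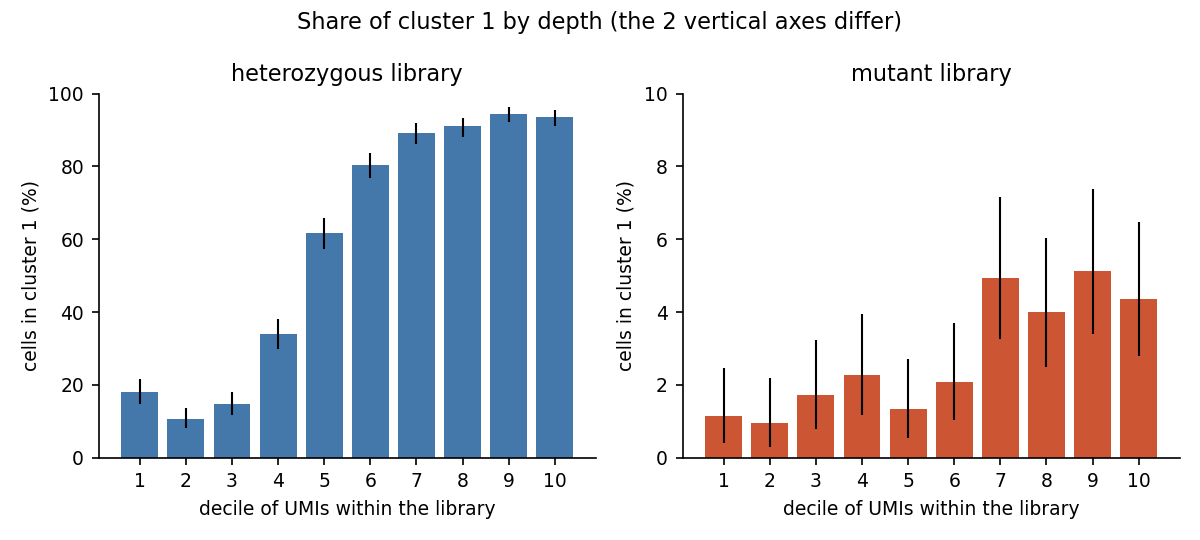
Percent of cells in cluster 1 (vertical axis) in each decile of UMIs per cell (horizontal axis), by library, with exact 95% intervals and a vertical axis of its own for each library. The heterozygous share climbs from 10.7% in the second to 94.4% in the ninth decile, and the mutant share stays at 5.13% or less.

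Cells of cluster 1 had the highest median UMIs in both libraries, with a wide margin over the next cluster in the heterozygous one and almost none in the mutant one. The heterozygous cells ran from 5651 to 79906 UMIs, with quartiles of 21047 and 31668 and a median of 25372.5 (24966 to 25677). The mutant cells ran from 6254 to 39447 UMIs, with quartiles of 14058 and 21244 and a median of 17072 (16511 to 18379). The upper quartile of the mutant cells thus lay close to the lower quartile of the heterozygous ones. The heterozygous median was 1.45 times that of cluster 2, the next highest, and 1.88 times that of cluster 4, the cluster that follows in pseudotime. In the mutant library the same ratios were 1.01 and 1.16, and the interval of cluster 1 overlapped that of cluster 2 (16670 to 17236).

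The excess lay in spliced RNA. The heterozygous median was 23377.5 spliced UMIs in cluster 1, against 11517 to 16295 in the other 6 clusters with at least 20 heterozygous cells. The unspliced median was 1386.5 UMIs, inside the range of those clusters, 1255.5 to 1760. Set against cluster 4, heterozygous cells of cluster 1 therefore held 1.86 times the spliced and 0.944 times the unspliced UMIs. Mutant cells of cluster 1 had medians of 15898 spliced and 1150 unspliced UMIs. Their spliced median was 1.01 times that of mutant cluster 2, and their unspliced median was the lowest of the mutant clusters, just under the 1173 of cluster 3.

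**Figure D2:**
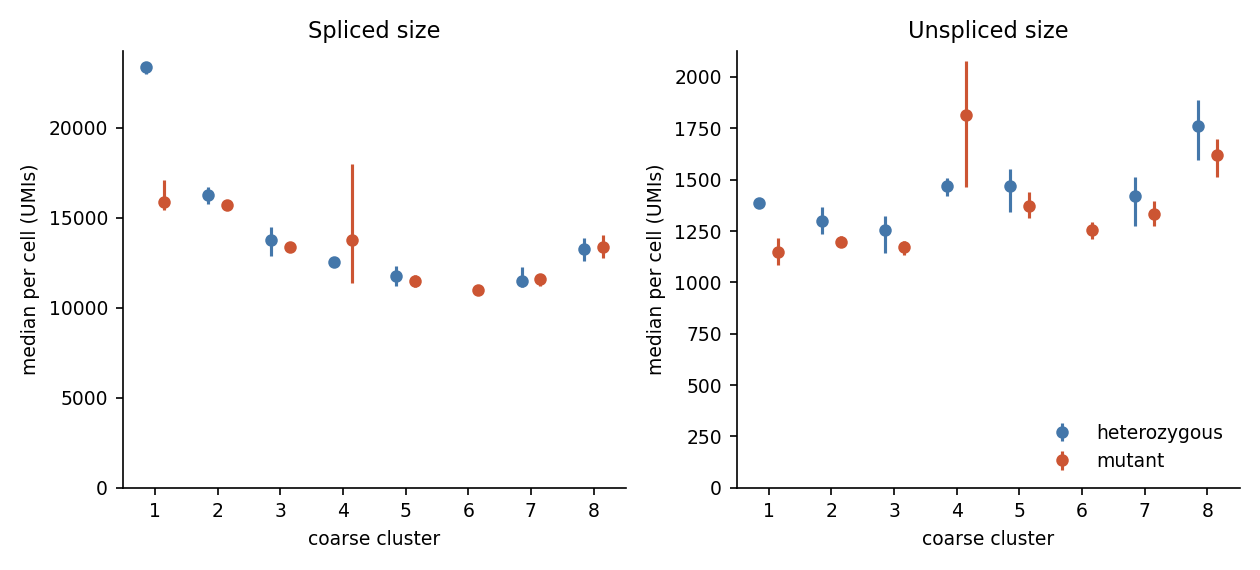
Median spliced (left) and unspliced (right) UMIs per cell in each coarse cluster, by library, with exact 95% intervals of the median; cluster 6 has too few heterozygous cells for a median. Heterozygous cluster 1 is highest in spliced UMIs, at 23377.5, while its unspliced median of 1386.5 lies among those of the other clusters.

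As a percent of spliced plus unspliced UMIs, the unspliced part was lowest in cluster 1 in both libraries. Heterozygous cells had a median of 5.53% (quartiles 4.50% and 6.83%) and mutant cells 7.02% (quartiles 5.46% and 8.63%), a difference of 1.50 percentage points. The mutant value was close to that of mutant cluster 2, 7.07% (6.98% to 7.16%), with overlapping intervals. Summed over all cells of the cluster, unspliced UMIs were 5.82% for heterozygous and 7.10% for mutant cells, so the difference was present in the pooled RNA as well. It was smaller in some subsets of cells. The difference of medians was 0.758 percentage points among cells with at most 1.39% mitochondrial UMIs, the median of the whole series. That maximum lay below the mutant median of the cluster (1.46%) and above its heterozygous upper quartile (1.08%), so it removed a larger part of the mutant cells. The difference was 0.953 in bins of UMIs with all cells, and 0.668 in those bins without the cells under 2% unspliced described next.

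A small set of cells departed from this pattern. Fewer than 2% unspliced UMIs were found in 52 heterozygous cells of cluster 1 (1.70%, interval 1.27% to 2.22%) and in 1 mutant cell (0.680%, interval 0.0172% to 3.73%). At this number of mutant cells the 2 shares were not separated. The cut was placed after seeing the data, and 10 heterozygous cells lay within 20% of it. The 52 cells had a median of 0.584% unspliced UMIs, 11787.5 UMIs, 1886 genes and 0.236% mitochondrial UMIs, all below the medians of the cluster. They made up 24 of the 94 cells of cluster 1 in the shallowest heterozygous decile. Over the whole series 116 of 10469 cells were under 2%. They included 53 of the 3207 cells of cluster 1 and 16 of the 1050 cells of cluster 4. Cluster 8 had 6 heterozygous and 5 mutant ones among its 499 cells, so such cells were not particular to cluster 1. What these cells or droplets are was not tested.

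Mutant cells of cluster 1 carried more genes than heterozygous cells of like depth, although their overall median was lower. Over all cells, the medians were 3448.5 genes in heterozygous and 3256 in mutant cells. Each mutant cell was then set against the median of the 20 heterozygous cells of the cluster nearest to it in UMIs, a comparison chosen after seeing the data. The mutant cell had more genes in 132 of 147 cases, by a median of 352 genes. The same held in all 5 bins of UMIs bounded by the quintiles of the mutant cells. In the lowest bin, up to 12866 UMIs, the medians were 2141 genes in 127 heterozygous and 2598 in 30 mutant cells, although heterozygous cells were also shallower there (10007 against 11453 UMIs). In the second bin, where depth was nearly equal (15006.5 and 15025 UMIs), they were 2768.5 and 3070 genes. In the highest bin, above 22538 UMIs, they were 3629.5 and 3970 genes. Leaving out cells under 2% unspliced kept the mutant median higher in 5 of 5 bins, with averages of 2947 and 3274.6 genes.

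**Figure D3:**
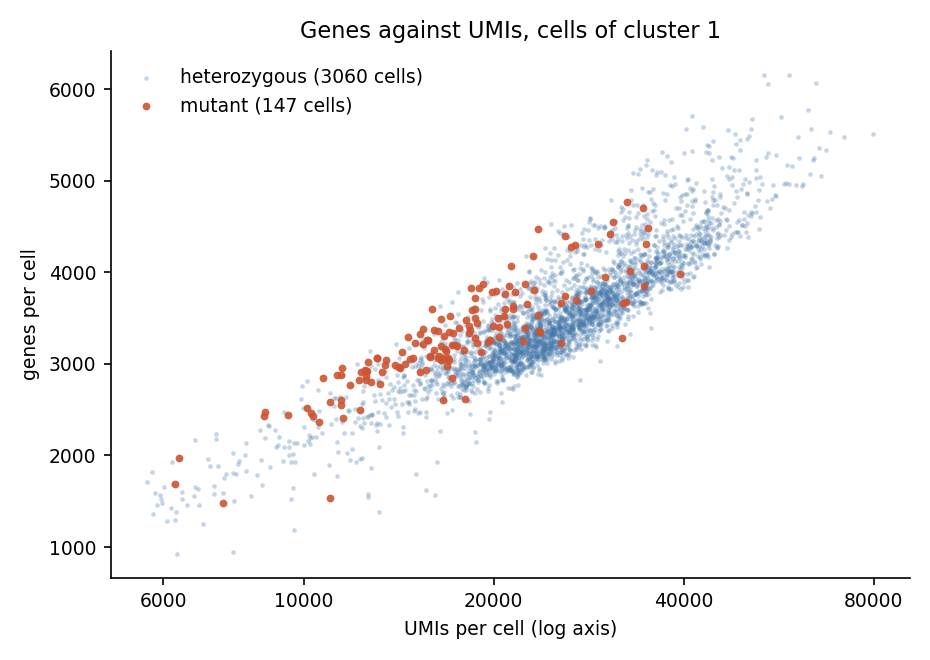
Genes per cell against UMIs per cell (log axis) for each cell of cluster 1, heterozygous in blue and mutant in red. Of 147 mutant points, 132 lie above the median genes of the 20 heterozygous cells nearest in UMIs.

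The same count was made in the other clusters with enough cells. The mutant cell had more genes in 89.8% of cases in cluster 1, against 52.3% of 1469 cases in cluster 2 and 60.3% of 1447 cases in cluster 3. The shares for clusters 5, 7 and 8 were 52.9%, 58.0% and 52.6%. The median excess in these 5 clusters was between 8.75 and 50 genes. Cluster 4, the other cluster made up mostly of heterozygous cells, had 18 of 23 cases, or 78.3% (56.3% to 92.5%), and a median excess of 112.5 genes. Its interval overlapped that of cluster 1 (83.7% to 94.2%). The matching was not alike across clusters. In cluster 1 the mutant median of 17072 UMIs lay just above the shallowest decile of heterozygous cells, which ended at 16912 UMIs. Many mutant cells there were thus set against the shallow end of the heterozygous cells. In clusters 2, 3, 5, 7 and 8 the mutant median of UMIs was 0.966 to 1.02 times the heterozygous one, and in cluster 4 1.09 times. The shares are therefore not a like comparison. Whether cluster 1 differs from the other clusters beyond the variation between embryos could not be tested with 1 library each.

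Unspliced percent was compared in the same way, with the same unlike matching across clusters. At matched depth the mutant cell had the higher unspliced percent in 93 of 147 cases, by a median of 0.689 percentage points. In clusters 2, 3, 4, 5, 7 and 8 this was so in 39.5% to 47.3% of cases, so the count leaned the other way there. The intervals of cluster 4 (23.2% to 65.5%) and cluster 7 (42.7% to 51.7%) included an even split. Such intervals treat cases as independent, although the same heterozygous cells served many mutant cells, 122 for all 1447 in cluster 3. They are therefore too narrow to decide whether the remaining clusters depart from an even split. Averaged over the bins of UMIs, cluster 3 was the exception, with 7.80% in heterozygous and 7.93% in mutant cells. The cells of cluster 1 under 2% unspliced, 52 heterozygous and 1 mutant, were picked by this same measure. Removing them could only raise or keep a median, and mainly touched the heterozygous ones. It brought the lowest bin of cluster 1 to 8.06% in heterozygous and 8.15% in mutant cells. The averages over the 5 bins still differed by the 0.668 percentage points given above, against 0.953 before the removal.

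Mitochondrial transcripts were scarcest in heterozygous cells of cluster 1, with a median of 0.776% of UMIs (quartiles 0.573% and 1.08%). The other 6 heterozygous medians lay between 1.25% and 1.46%. Mutant cells of cluster 1 had 1.46% (quartiles 1.21% and 2.04%). They exceeded their nearest heterozygous cells in 137 of 147 cases, by a median of 0.600 percentage points. A higher mutant value was found in every cluster compared in this way, in 65.2% to 77.5% of cases outside cluster 1, so higher mutant values were not limited to cluster 1. The lowest share, 15 of 23 cases in cluster 4, had an interval of 42.7% to 83.6%, which included an even split. Within a library and within cluster 1, cells with more mitochondrial UMIs tended to have more unspliced RNA, with a Spearman rank correlation of 0.37 over 3060 heterozygous and 0.34 over 147 mutant cells, as a description over cells that share a library. The part of mitochondrial content in the other differences was not tested.

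In velocity pseudotime, cluster 1 lay tightly at the low end. The heterozygous cells had a median of 0.0117 (5th to 95th percentile 0.00733 to 0.0162) and the mutant cells 0.00961 (0.00576 to 0.0311), on a scale from 0 to 1. The mutant median was lower, but the mutant upper tail was longer. Beyond 0.05 lay 14 heterozygous cells (0.458%, interval 0.250% to 0.766%) and 6 mutant cells (4.08%, interval 1.51% to 8.67%). The mean therefore had the opposite order, 0.0127 in heterozygous and 0.0168 in mutant cells. All 20 late cells had root cell scores of 0.488 or more, and they reached a pseudotime of 0.448. The 14 heterozygous ones ranged from 7750 to 60835 UMIs, with a median of 34966 UMIs and 4540.5 genes. Of these, 8 lay above the upper quartile of UMIs of the cluster's heterozygous cells. The 6 mutant ones had a median of 15166.5 UMIs. Only 7 cells of other clusters fell at or below 0.05, 5 of them from cluster 4.

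Root and end point scores of the genotypes lay apart in opposite directions. Root cell scores had a median of 0.0112 in heterozygous cells (quartiles 0.00285 and 0.0552) and 0.0976 in mutant cells (quartiles 0.0331 and 0.289). A score of 0.1 or more was held by 521 heterozygous cells (17.0%, interval 15.7% to 18.4%) and 73 mutant cells (49.7%, interval 41.3% to 58.0%). At cuts of 0.5 and 0.9 the genotypes were not separated at this number of cells. Scores of 0.5 or more were held by 206 heterozygous (6.73%, interval 5.87% to 7.68%) and 15 mutant cells (10.2%, interval 5.82% to 16.3%). Scores of 0.9 or more were held by 126 heterozygous (4.12%, interval 3.44% to 4.88%) and 8 mutant cells (5.44%, interval 2.38% to 10.4%). Despite its low pseudotime, cluster 1 did not have the highest root cell scores. Its heterozygous median was above 3 of 6 other clusters, and below clusters 3 (0.0544), 5 (0.112) and 7 (0.103). Its mutant median was above 5 of 7, and below clusters 4 (0.128) and 5 (0.115).

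End point scores went the other way. Their median was 0.0363 in heterozygous cells (quartiles 0.0150 and 0.0927) and 0.00493 in mutant cells (quartiles 0.00181 and 0.0121), so the upper quartile of the mutant cells lay below the lower quartile of the heterozygous ones. A score of 0.1 or more was held by 716 heterozygous cells (23.4%, interval 21.9% to 24.9%) and 7 mutant cells (4.76%, interval 1.94% to 9.57%). Those 7 mutant cells had 16643 to 39447 UMIs and a median of 32111. No cell of the cluster reached 0.5, and the highest score was 0.427. The scores are the authors' own. About 254 heterozygous cells lay within 20% of the 0.1 end point cut and 147 within 20% of the 0.1 root cut.

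**Figure D4:**
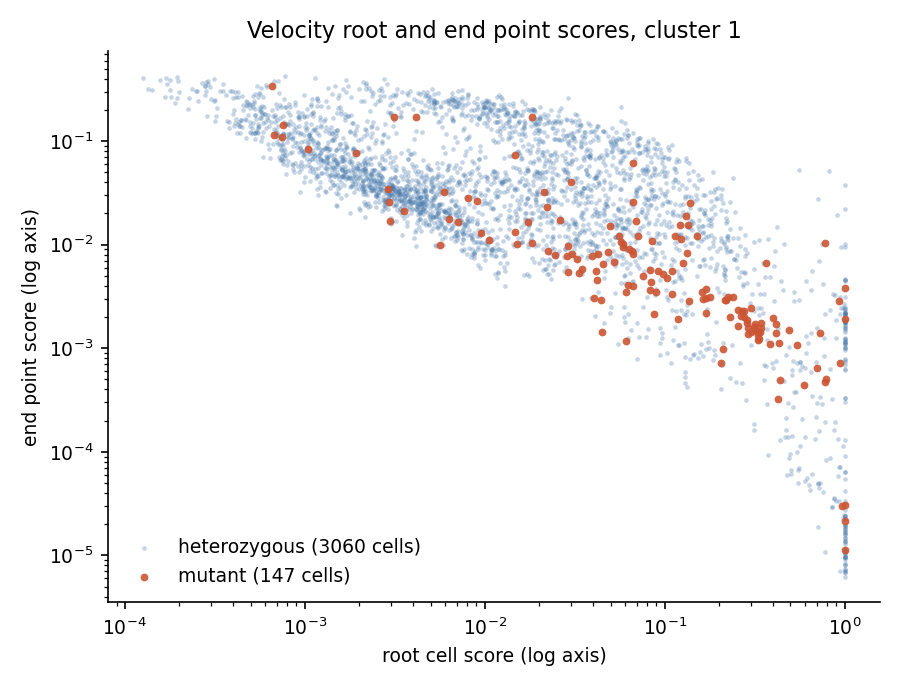
End point score against root cell score (both log axes) for each cell of cluster 1, heterozygous in blue and mutant in red. High root and low end point scores go together, and the mutant cells, with medians of 0.0976 and 0.00493, crowd towards the lower right while heterozygous cells, with medians of 0.0112 and 0.0363, fill the upper left.

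Within cluster 1 deeper cells tended to have lower root cell scores. From the shallowest to the deepest decile of its heterozygous cells, the median root cell score went from 0.0254 to 0.00290. The cells with root cell scores of 0.9 or more were an exception. The 126 heterozygous ones had a median of 32943.5 UMIs, against 25372.5 for all heterozygous cells of the cluster. The 8 mutant ones had 20796, against 17072 for all its mutant cells. The median end point score showed no steady trend. It was 0.0236 in the shallowest decile, between 0.0316 and 0.0390 in the next 7, and 0.0519 and 0.0697 in the deepest ones. The median mitochondrial percent was 0.929% in the shallowest decile, 0.685% in the seventh and 0.721% in the deepest. The unspliced percent was 6.56% in the shallowest decile and between 5.25% and 5.76% in the other 9. The Spearman correlation of UMIs with root cell score was -0.26 in heterozygous and -0.42 in mutant cells. That of UMIs with end point score was 0.099 and 0.38, and that of root with end point score was -0.61 and -0.83. At matched depth the genotypes remained apart in both scores. The mutant cell had the higher root cell score in 121 of 147 cases and the higher end point score in 16 of 147. The root median was higher in mutant cells in all 5 bins of UMIs, from 0.295 against 0.0235 in the lowest bin to 0.0217 against 0.00734 in the highest. The end point median was lower in mutant cells in all 5.

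**Figure D5:**
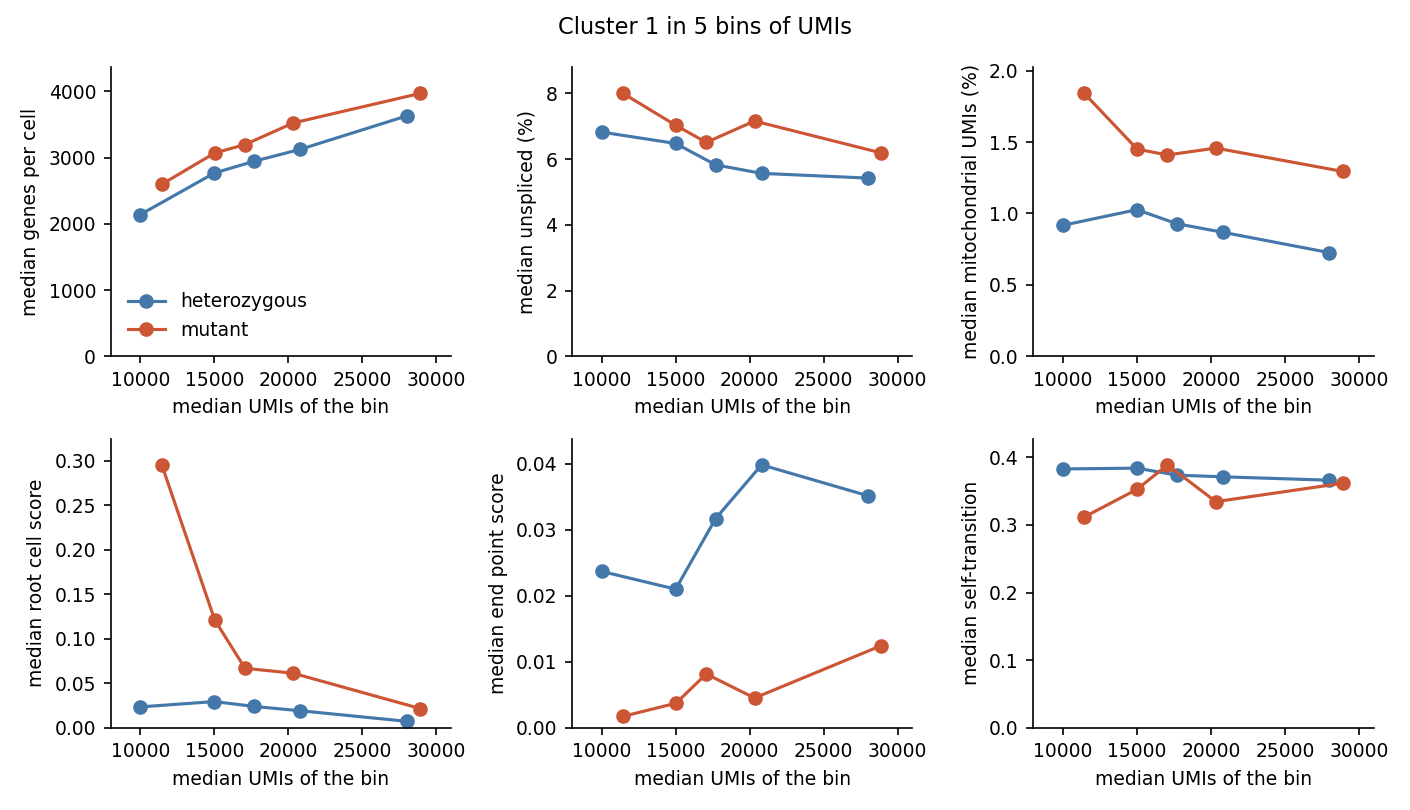
Medians of 6 measures (vertical axes) in cluster 1 in 5 bins of UMIs bounded by the quintiles of mutant cells, against the median UMIs of the bin (horizontal axes), for heterozygous (blue, 127 to 1742 cells a bin) and mutant cells (red, 29 or 30 a bin). Mutant medians are higher in all bins for genes, unspliced percent, mitochondrial percent and root cell score, lower in all for end point score, and lower in 4 of 5 for self-transition.

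Self-transition was slightly lower in mutant cells. Its median was 0.367 in heterozygous cells (quartiles 0.317 and 0.418) and 0.341 in mutant cells (quartiles 0.301 and 0.399). The mutant cell was higher in 53 of 147 matched cases.

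Cluster 4 was the cluster most like cluster 1 in its heterozygous root, end point and self-transition scores and in how these moved with genotype. Its heterozygous medians were 0.0109 for the root cell score, 0.0476 for the end point score and 0.366 for self-transition. Its 23 mutant cells had 0.128, 0.0208 and 0.268, which changes each score in the same direction as in cluster 1, with intervals apart in all 3. Against the nearest heterozygous cells in UMIs, the mutant cell of cluster 4 was higher in 18, 7 and 3 of 23 cases. The end point share, 30.4% (13.2% to 52.9%), included an even split, and the other 2 intervals did not. Cluster 4 differed in splicing, with 10.3% unspliced UMIs in heterozygous cells, and in depth, as given above. Clusters 2 and 3, which came nearest to cluster 1 in unspliced percent, had median end point scores of 5.54e-05 or less in both libraries.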

How the data were processed

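STARsolo, Scanpy and the genome build danRer11 are listed in the submitters' processing notes. Their versions, the annotation, the filters on cells, any removal of doublets and the settings of clustering and velocity were not given in the sources used here. Per cell, the authors deposited genes per cell (a count, per the file headers), the natural log of 1 plus total UMIs, mitochondrial percent, cluster numbers (other, with no unit), spliced and unspliced sizes and velocity scores (each score as the authors gave it, per the file headers). Both sizes hold whole numbers only and were taken to be UMIs. In the median cell of cluster 1 they summed to 97.6% of the deposited total. The deposited columns not used numbered 4. Totals were recovered by inverting the natural log, within 0.0614 of a whole number. All 10469 cells were identical in the other deposited table in the 5 measures compared.

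Shares have exact Clopper-Pearson 95% intervals and medians exact order-statistic 95% intervals, and all cover counting error only. Intervals of matched cases also leave out that the same heterozygous cells served many mutant cells. No p-value was computed, since cells are not replicates. Medians per library needed at least 20 cells, and bins in other clusters at least 10. Named items were cluster 1, its fine clusters, and clusters 2, 3 and 4 for comparison. The members, lists and alternatives were chosen with earlier results of these data known. The depth matching was tried on simulated cells whose genes rose linearly with UMIs, with the same slope in both libraries and a fixed excess in the mutant one. The simulation held no atypical shallow cells such as those under 2% unspliced, so it says nothing about their effect. No doublet caller was run, since no expression matrix was used. Python 3.11.15, numpy 2.4.6, pandas 2.3.3 and scipy 1.17.1 were used.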

Additional observations from a re-analysis of the deposited data

Results flagged for a closer look

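Some mutant minus heterozygous differences of medians ran in one direction in cluster 1 and in the other in a further cluster, with intervals apart in both. None of these differences between clusters was tested, since each genotype had 1 library. Pseudotime was lower in mutant cells of cluster 1 (difference -0.00211) and higher in those of cluster 2 (0.00185) and cluster 3 (0.00652). The root cell score was higher in mutant cells of cluster 1 (0.0864) and lower in those of cluster 7 (-0.0394). The end point score was lower in mutant cells of cluster 1 (-0.0314) and higher in those of cluster 3 (3.12e-05) and cluster 7 (9.50e-04). Those 2 rises were at the bottom of the score. Heterozygous and mutant medians were 2.42e-05 and 5.54e-05 in cluster 3, and 6.88e-04 and 0.00164 in cluster 7. Clusters 4 and 8 had lower mutant medians, as cluster 1 did, with intervals apart in cluster 4 only. In cluster 8 the medians were 0.364 and 0.166. Self-transition was lower in mutant cells of cluster 1 (-0.0264) and higher in those of cluster 3 (0.0705).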

How the results depend on the processing

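Of 70 alternative values for the 9 comparisons within or of cluster 1, 66 kept their direction and 53 stayed within the interval of the reported value; those from the other deposited table and from the fine cluster could not differ, since the cells are the same. The comparison with nearest cells and the bins without cells under 2% unspliced were chosen after seeing the data. The ratio of mutant to heterozygous median genes, 0.944, reversed to 1.12 in UMI bins, 1.11 against nearest cells and 1.11 in bins without cells under 2% unspliced. The pseudotime difference reversed with means, to 0.00415, which the 20 late cells above enter, and moved to -0.00127 in bins without cells under 2% unspliced. The ratio of shares, 0.0475, moved to 0.0751 among cells between 12866 and 22538 UMIs, where cluster 1 held 43.8% of heterozygous and 3.29% of mutant cells. The mitochondrial difference, 0.685 percentage points, was 0.365 with a maximum of 1.39% mitochondrial UMIs, 0.597 in bins, 0.559 against nearest cells and 0.564 in bins without cells under 2% unspliced. The unspliced difference, 1.50 points, was 0.758 with the mitochondrial maximum and 0.668 in bins without cells under 2% unspliced. With all cells it was 0.953 in bins and 1.06 against nearest cells, both within the joined interval of 0.904 to 1.85. The root cell score difference, 0.0864, was 0.0518 with the mitochondrial maximum. The end point score difference, -0.0314, was -0.0508 with means, -0.0242 in bins, -0.0243 against nearest cells and -0.0268 in bins without cells under 2% unspliced. Apart from the settings' own selection of cells, the cause of these shifts was not tested. No library could be left out. No paired analysis was possible because each genotype had 1 library. Counting error is set by the 147 mutant cells.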
